A study of Rattus norvegicus with 20 samples.

Results

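The effect of electrical stimulation of the motor cortex was examined in the subcortical white matter directly beneath the electrodes, which the study numbers region 1. The comparison used 4 of the 20 RNA-seq libraries, chosen by their sample labels alone: region 1 of 2 stimulated rats and region 1 of 2 control rats, with 1 library per animal. The rats were adult female Long-Evans of WT genotype, an outbred strain, and were 6 to 8 months old. All 4 animals carried a contusion of 1 side of the spinal cord at cervical level 4, made with a displacement of 0.7 mm, and electrodes in the forelimb motor cortex on the side opposite the injury. Before implantation they were given dexamethasone, an anti-inflammatory steroid. The stimulated animals received pulses at 10 Hz for 5 hours a day during 1 week, at 80% of the current that evoked a movement. The control animals were connected to the stimulator without current, so the injury, the implant and the steroid were common to both groups, and no tissue without an implant enters this comparison. White matter was dissected without the overlying cortex and sequenced in bulk, so fewer cells of a type and less RNA per cell cannot be told apart.

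White matter consists mainly of myelinated axons, the oligodendrocytes that make their myelin, astrocytes and microglia. Microglia are the resident macrophages of the brain. Near an implant or an injury they, together with macrophages from the blood, take up debris, enlarge their lysosomes and switch on genes for lipid handling, while astrocytes produce more intermediate filament protein. Neuronal activity, in turn, switches on immediate early genes, a set of transcription factors and synaptic regulators, within minutes.

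The authors deposited gene expression as FPKM, which scales the fragments of a gene by its transcript length and by the mapped reads of the library, with all values under 0.1 raised to 0.1. Of the 30443 genes listed, 15210 reached 1 FPKM in at least 1 of the 20 libraries and were tested on the log2 scale. FPKM does not keep the number of reads, so the depth behind a gene is unknown. With limma, 0 genes (0%) had an adjusted p under 0.05, while 828 (5.44%) had an unadjusted p under 0.05. The smallest adjusted p was 0.71, and 2 animals against 2 cannot give an exact permutation p below 0.333. The comparison is therefore described by whether both stimulated animals lay on the same side of both control animals. A total of 3217 genes (21.2%) were higher in both stimulated animals than in both control animals, and 2965 (19.5%) were lower. These shares are the background for every count of list members in region 1 below, unless another scaling is named. After quantile normalization the same split was 2842 higher and 4725 lower of the 15210 genes, and after upper-quartile scaling 3624 and 3904. Counts given with those scalings are to be read beside these numbers.

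The libraries of the 2 stimulated animals differed from each other more than those of the control animals did. The median absolute log2 difference between the stimulated libraries was 0.327, against 0.116 between the control libraries, and 1488 genes were more than 2-fold apart between the stimulated libraries, against 324 between the control libraries. Stimulated animal 2 alone was at least 2-fold above both control libraries in 1130 genes (7.43%) and at least 2-fold below them in 187 (1.23%), and stimulated animal 1 alone in 137 (0.901%) and 54 (0.355%). Over genes, the log2 values of stimulated animal 2 correlated with those of the control libraries at 0.903 and 0.915, while stimulated animal 1 and both control libraries correlated with each other at 0.983 to 0.987. Markers of lymphocytes, which number 9 above the filter, summed to 82.3 FPKM in stimulated animal 2, against 6.54 to 16.3 in the other 3 libraries. Markers of blood monocytes and granulocytes, which number 10, summed to 558 FPKM in stimulated animal 2, against 53.1 to 90.5. Before the filter the data listed 17 and 12 genes of these lists. Since 1 library sufficed to pass it, members may have entered through stimulated animal 2, which would favor its sums. Stimulated animal 1 stood apart in another way. All 15 markers of striatal medium spiny neurons, the main neurons of the striatum below this white matter, were above both control libraries in stimulated animal 1, with a sum of 256 FPKM, against 94.4 to 99.5 in control animals and 76.3 in stimulated animal 2. Myelin genes also summed to 3365 FPKM in stimulated animal 1, against 1997 and 2178 in control animals and 1745 in stimulated animal 2. The part of these markers in the results was not tested. For many of the gene groups below the median of each stimulated animal is given, and for the rest only that of both. Over all genes tested, the median above the control mean was 0.06 in stimulated animal 1 and -0.14 in stimulated animal 2. Medians of a single animal are to be read beside these values.

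The labelled tissue was also checked against its markers. The myelin gene Mbp stood at 697 to 1484 FPKM in the 4 libraries. Slc17a7, the vesicular glutamate transporter of cortical excitatory neurons, stood at 225 to 329 FPKM, so transcripts of cortical neurons were present in a block labelled as white matter without cortex.

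Among gene groups, genes of activated microglia and other phagocytes lay above the control animals in both stimulated animals. Of the 22 genes on this list, all of which passed the filter, 16 were higher in both stimulated animals and 1 was lower, beside 21.2% and 19.5% of all genes. Among the 16 were Gpnmb and Lgals3, which the study had named as higher in these libraries, so their direction was known beforehand. The median log2 fold change of the list was 1.08, against -0.03 over all genes, and 13 of its genes had an unadjusted p under 0.05. The list stood at a median of 0.68 above the control mean in stimulated animal 1 and 1.73 in stimulated animal 2. In stimulated animal 1 alone, 16 of the 22 were above both control libraries, beside 49.4% of all genes, and in stimulated animal 2 alone 21 were, beside 30.9%.

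**Figure D1:**
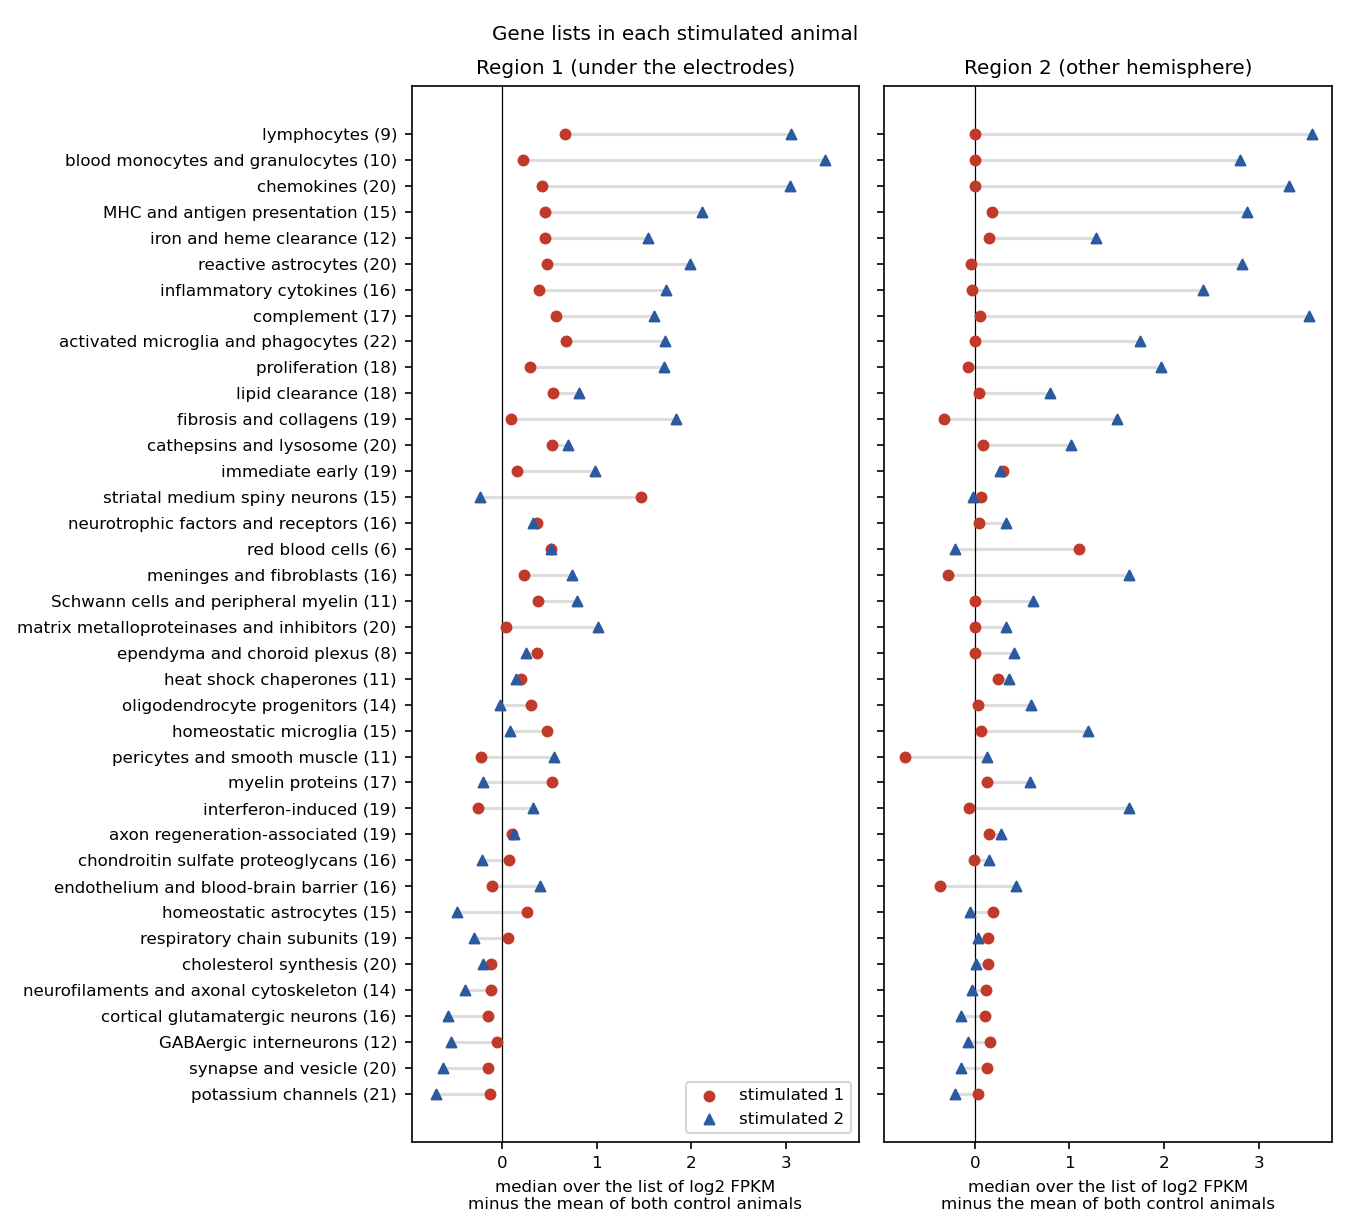
Median over each gene list of the log2 FPKM of stimulated animal 1 (circles) and stimulated animal 2 (triangles) minus the mean of both control animals, in region 1 (left) and region 2 (right); the number of genes above the filter is given after each list name. In region 1 the phagocyte list stood at 0.68 and 1.73 and the synapse list at -0.15 and -0.63, and in region 2 stimulated animal 1 lay at 0.00 and 0.13 for these lists.

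Gpnmb (ENSRNOG00000008816), a membrane glycoprotein of macrophages with swollen lysosomes, had the widest gap between the groups on this list. It measured 21.2 and 26.0 FPKM in the control group and 88.3 and 137 FPKM in the stimulated group, so that the lower stimulated value was 3.39 times the higher control value. Its log2 fold change was 2.23 (SE 0.27, limma adjusted p = 0.71). Clec7a, the beta-glucan receptor dectin-1, measured 2.30 and 2.58 FPKM against 6.64 and 19.8. Cd68, a lysosomal membrane protein used as a marker of phagocytes, measured 6.09 and 5.47 FPKM against 13.9 and 29.6, for a mean log2 difference of 1.81 (SE 0.41, adjusted p = 0.71 by limma). These 3 genes were at least 2-fold above both control animals in both stimulated animals, as were 66 of all genes (0.434%).

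The promoters of Gpnmb and Cd68 are shown as examples that hold matches, from the phagocyte list. Both genes lay at least 2-fold above the controls in both animals. So did Clec7a of the same list, whose window held no match and is not printed. Sequences were taken from RefSeq for the build GRCr8, which is later than the Rnor6 build of the expression values, and run from 250 bases before to 50 bases after the start of the gene. Capitals mark matches, on either strand, to the E-box CACGTG, the M-box TCATGTG bound by factors of the MITF and TFE family, the PU.1 core GAGGAAG and the AP-1 site TGACTCA. These 4 motifs do not contain one another.
Gpnmb, chr4:79340878-79341177, plus strand: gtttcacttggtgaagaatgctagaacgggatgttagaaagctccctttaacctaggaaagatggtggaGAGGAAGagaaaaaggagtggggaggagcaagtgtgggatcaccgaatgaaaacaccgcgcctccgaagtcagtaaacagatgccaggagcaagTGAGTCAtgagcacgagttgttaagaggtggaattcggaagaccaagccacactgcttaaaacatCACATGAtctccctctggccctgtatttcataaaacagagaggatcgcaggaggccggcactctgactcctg
Cd68, chr10:54882392-54882691, minus strand: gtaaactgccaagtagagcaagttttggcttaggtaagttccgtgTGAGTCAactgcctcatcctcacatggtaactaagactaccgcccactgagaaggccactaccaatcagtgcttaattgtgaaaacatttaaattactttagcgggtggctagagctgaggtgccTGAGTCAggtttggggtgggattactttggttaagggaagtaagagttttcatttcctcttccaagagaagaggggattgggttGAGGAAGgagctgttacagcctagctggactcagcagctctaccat
The Gpnmb window held a PU.1 core starting at -181, an AP-1 site on the reverse strand at -87 and an M-box on the reverse strand at -22, counted from the start of the gene. The Cd68 window held AP-1 sites on the reverse strand at -205 and -80 and a PU.1 core at 4. Over all 27457 promoters of the same length in the table, 6.65% held the E-box, 3.46% the M-box, 12.4% the PU.1 core and 4.53% the AP-1 site. Over the 10084 promoters of the genes tested, the shares were 9.05%, 2.07%, 13.4% and 3.43% in the same order. Of the 22 genes of the phagocyte list, 15 had a promoter in the table, and 4 of these held the E-box, 3 the M-box, 6 the PU.1 core and 5 the AP-1 site. Of the 66 genes at least 2-fold higher, 35 had a promoter, and the numbers were 3, 1, 7 and 3 in the same order. For the 16 promoters of the lysosomal list, described below, they were 3, 2, 5 and 0. The Clec7a and Cd44 windows held none of these letters. A match describes the sequence and is not a measured binding site.

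The study named Lgals3, Cd44 and Gpnmb for this region. Lgals3, which encodes the sugar-binding protein galectin-3, measured 16.5 and 16.8 FPKM in control animals and 32.8 and 67.8 in stimulated animals. Its gap of 0.97 log2 units between the groups placed it just below the 2-fold mark. Cd44, a receptor for hyaluronan on reactive glia and leukocytes, measured 8.27 FPKM in each control animal and 17.2 and 26.7 in stimulated animals, a gap of 1.06, just above that mark. For both genes the higher value came from stimulated animal 2.

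Other genes of the list were less far apart. Tyrobp, the signaling adaptor of Trem2, measured 23.0 and 25.2 FPKM in control animals and 44.2 and 87.5 in stimulated animals. Trem2, a lipid-sensing receptor of microglia, measured 8.23 and 9.89 against 16.0 and 13.5 FPKM, and here stimulated animal 1 was the higher. Apoe, the main lipid carrier of the brain, was the most abundant member, at 1362 and 1704 FPKM in control animals and 2758 and 2377 in stimulated animals. The member that was lower in both stimulated animals was Cd5l, a protein secreted by macrophages, at 1.25 and 0.642 FPKM in control animals and 0.181 and 0.408 in stimulated animals. Spp1, which encodes osteopontin, overlapped between groups, at 55.7 and 19.1 FPKM in control animals, 18.6 in stimulated animal 1 and 593 in stimulated animal 2.

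The markers of resting microglia were less separated. Of 15 such genes, 5 were higher in both stimulated animals and 0 were lower, with a median log2 fold change of 0.20. P2ry12, the purinergic receptor of resting microglia, measured 17.1 and 16.3 FPKM in control animals and 18.8 and 14.6 in stimulated animals, and the groups overlapped; its log2 fold change of -0.01 (SE 0.16) turned to 0.02 with quantile normalization or upper-quartile scaling. Csf1r, the receptor for macrophage growth factor, measured 39.0 and 31.4 against 49.7 and 63.0 FPKM and did not overlap.

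Lysosomal genes were higher to a similar degree in both stimulated animals. Of 20 cathepsins, lysosomal hydrolases and membrane proteins, 17 were higher in both stimulated animals and 0 were lower, beside 21.2% and 19.5% of all genes, with a median log2 fold change of 0.69 and medians of 0.52 and 0.70 in stimulated animals 1 and 2. In stimulated animal 1 alone, 19 of the 20 lay above both controls, beside 49.4% of all genes. Npc2, which carries cholesterol out of the lysosome, measured 51.5 and 57.5 FPKM in control animals and 114 and 89.7 in stimulated animals. Ctsd, the aspartic protease cathepsin D, measured 102 and 121 against 202 and 177 FPKM. For both, stimulated animal 1 was the higher of the pair. Ctsb, the cysteine protease cathepsin B, measured 257 and 236 against 373 and 517 FPKM. Gusb, which encodes beta-glucuronidase, had the widest gap of the list, with 2.51 and 2.48 against 4.39 and 4.54 FPKM. None of the 20 reached the 2-fold mark in both animals. The other 3 genes overlapped between the groups.

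Genes that clear and store lipid followed the same direction, but the lists overlap. Apoe, Lpl, Plin2, Fabp5 and Msr1 are also on the phagocyte list, and Npc2 and Lipa on the lysosomal list. Ctsd is on both the phagocyte and the lysosomal list. Of 18 such genes, 14 were higher in both stimulated animals and 0 were lower, with a median log2 fold change of 0.79. Abca1, which exports cholesterol to lipoproteins, measured 19.5 and 20.7 FPKM in control animals and 33.3 and 40.6 in stimulated animals. Soat1, which esterifies cholesterol for storage, measured 8.38 and 8.48 against 12.2 and 21.9 FPKM. Genes of cholesterol synthesis lay on the other side. Of 20 such genes, 11 were lower in both stimulated animals and 1 was higher, with a median log2 fold change of -0.12. These differences were small. Srebf2, the transcription factor of the pathway, measured 29.7 and 27.7 against 24.8 and 20.2 FPKM.

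Iron-handling genes included members that were higher in both animals. Of 12 genes for heme breakdown and iron storage and transport, 6 were higher in both stimulated animals and 0 were lower, with a median log2 fold change of 1.16. The medians were 0.45 in stimulated animal 1 and 1.54 in stimulated animal 2. In stimulated animal 1 alone, 6 of the 12 lay above both controls, a share near the 49.4% of all genes. In stimulated animal 2 alone 11 did, beside 30.9%. Hmox1, the enzyme that opens heme, measured 7.21 and 5.64 FPKM in control animals and 15.2 and 43.8 in stimulated animals, at least 2-fold above the controls in both. Ftl1 and Fth1, the light and heavy chains of the iron store ferritin, measured 71.7 and 74.3 against 147 and 198 FPKM, and 389 and 381 against 606 and 1100.5 FPKM. Tf, which encodes transferrin and is made by oligodendrocytes, measured 106 and 144 against 245 and 368 FPKM. Among 6 red blood cell genes, 3 were higher in both stimulated animals and 1 was lower, and their sum was 3.77 and 8.56 FPKM in control animals and 11.01 and 10.7 in stimulated animals. The part of blood in the tissue was not tested. Ftl1 has near-identical copies in the rat genome, so its level is uncertain.

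**Figure D2:**
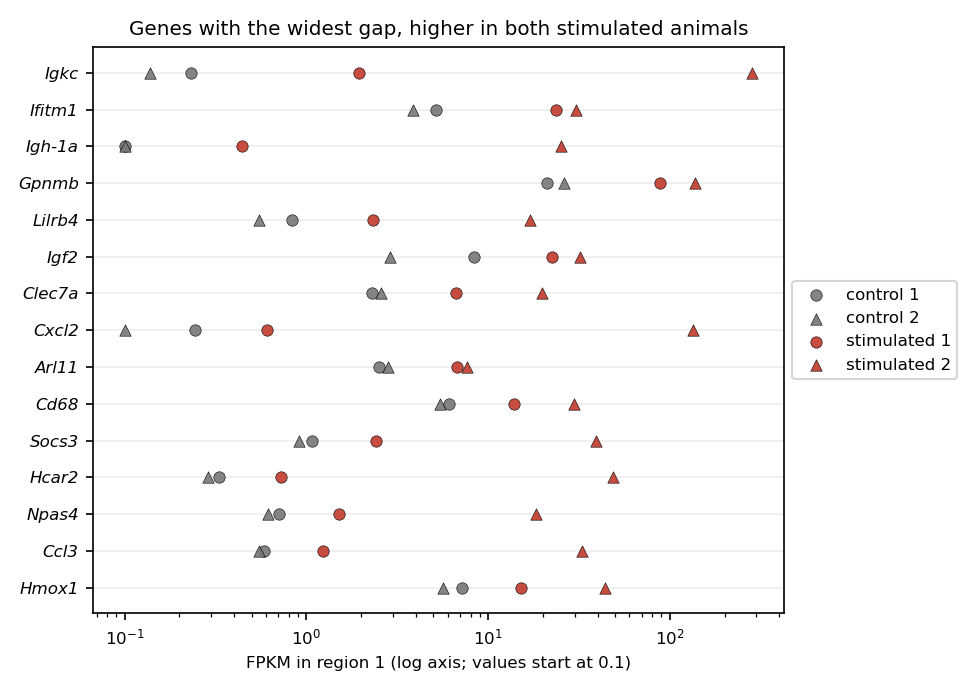
FPKM in region 1, on a log axis, of the 15 abundant genes with the widest gap between groups that were higher in both stimulated animals; gray marks are control and red marks stimulated animals, circles are animal 1 and triangles animal 2. For Ifitm1, Gpnmb, Igf2 and Arl11 the stimulated animals lie close together, while for Igkc, Cxcl2 and Hcar2 stimulated animal 2 lies far above stimulated animal 1.

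The 66 genes at least 2-fold higher in both stimulated animals comprised 63 coding genes and 3 long non-coding RNAs. Of these, 20 had a mean of at least 5 FPKM in stimulated animals and 17 a mean under 1 FPKM. Stimulated animal 2 was further from the control mean than stimulated animal 1 for 55 of the 66. Ifitm1, an interferon-induced membrane protein, was an abundant gene with similar values in both animals, at 5.17 and 3.87 FPKM in control animals and 23.6 and 30.3 in stimulated animals (log2 fold change 2.58, SE 0.22, limma adjusted p = 0.71). Arl11, a small GTPase of macrophages, measured 2.496 and 2.81 against 6.72 and 7.63 FPKM. Igf2, a growth factor of the meninges and vessels, measured 8.33 and 2.88 against 22.4 and 32.1 FPKM, with control animal 1 well above control animal 2. Lilrb4, an inhibitory receptor of myeloid cells, measured 0.828 and 0.545 against 2.31 and 16.9 FPKM.

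Reactive astrocyte genes were likewise higher. Of 20 genes, 13 were higher in both stimulated animals and 0 were lower, with a median log2 fold change of 1.13 and medians of 0.48 and 1.99 in stimulated animals 1 and 2. Among the 13 was Cd44, whose direction was known beforehand from the study. Gfap, the intermediate filament of astrocytes, measured 353 and 410 FPKM in control animals and 680 and 884 in stimulated animals (log2 fold change 1.03, SE 0.27, limma adjusted p = 0.71). Vim, which encodes vimentin, measured 84.8 and 59.6 against 122 and 199 FPKM. Tnc, the matrix protein tenascin-C, measured 2.24 and 2.38 against 3.81 and 4.29 FPKM. Socs3, the feedback inhibitor of STAT3 signaling, was carried mainly by stimulated animal 2, at 1.08 and 0.912 against 2.42 and 39.2 FPKM.

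Genes of resting astrocytes were also counted. Of 15, 4 were higher in both stimulated animals and 1 was lower, beside 21.2% and 19.5% of all genes, with a median log2 fold change of -0.08. The medians were 0.26 in stimulated animal 1 and -0.48 in stimulated animal 2. Aqp4, the water channel of astrocyte endfeet, measured 90.1 and 84.8 FPKM in control animals and 128 and 118 in stimulated animals. Slc1a2, the main glutamate transporter, measured 465 and 443 against 408 and 298 FPKM and was the member that was lower in both animals.

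Growth factors for glia and neurons gave mixed results. Of 16 neurotrophic factors and receptors, 9 were higher in both stimulated animals and 3 were lower, beside 21.2% and 19.5% of all genes, with a median log2 fold change of 0.63. With quantile normalization 6 were higher and 5 lower, beside 2842 and 4725 of all 15210 genes. On the log2(FPKM + 1) scale the median was 0.23. Fgf2, a mitogen for glia, measured 4.02 and 3.75 FPKM in control animals and 6.55 and 8.28 in stimulated animals. Igf1, which microglia secrete, measured 6.04 and 5.94 against 9.08 and 12.7 FPKM. Bdnf, the activity-regulated neurotrophin, overlapped at 2.098 and 1.92 against 1.96 and 2.204 FPKM. Its mean log2 difference of 0.05 (SE 0.18) was -0.08 with quantile normalization. Of 19 genes tied to axon regeneration, 5 were higher in both stimulated animals and 4 were lower, shares near those of all genes. The injury-induced factor Atf3 measured 1.42 and 1.46 against 3.32 and 6.68 FPKM, and Sprr1a, a cornified envelope protein of injured neurons, 1.56 and 2.02 against 1.18 and 0.799.

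Immediate early genes, which neuronal activity switches on, were mostly not separated between the groups. Of 19, 6 were higher in both stimulated animals and 0 were lower, and 0 had an unadjusted p under 0.05. The median of the list was 0.16 above the control mean in stimulated animal 1 and 0.98 in stimulated animal 2. Npas4, a transcription factor switched on by calcium entry in neurons, measured 0.708 and 0.612 FPKM in control animals and 1.51 and 18.4 in stimulated animals. Fos measured 5.86 and 3.58 against 7.65 and 59.3 FPKM. Arc, a synaptic regulator, overlapped at 34.4 and 16.6 against 31.5 and 43.7 FPKM, as did Egr1 at 20.2 and 14.3 against 17.5 and 22.3. The values above the controls thus came mainly from stimulated animal 2.

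Inflammatory signaling genes showed a wide spread between the stimulated animals. Of 16 inflammatory cytokines and their receptors, 14 were higher in both stimulated animals and 0 were lower, with medians of 0.39 in stimulated animal 1 and 1.73 in stimulated animal 2. Csf1, the growth factor of microglia and macrophages, measured 2.87 and 3.38 FPKM in control animals and 4.69 and 11.2 in stimulated animals. Il1b, which encodes interleukin-1 beta, overlapped, at 0.591 and 0.172 against 0.525 and 69.0 FPKM. Of 20 chemokines and receptors, 8 were higher in both stimulated animals and 0 were lower, with medians of 0.43 and 3.04. In stimulated animal 1 alone, 10 of the 20 lay above both controls, a share near the 49.4% of all genes. In stimulated animal 2 alone 17 did, beside 30.9%. Cxcl2, which attracts neutrophils, measured 0.243 and 0.1 against 0.607 and 134 FPKM. Ccl3 measured 0.581 and 0.549 against 1.24 and 32.7 FPKM. Ccr2, the receptor of blood monocytes for Ccl2, was listed at 0.1 FPKM in both control animals and at 0.524 and 2.02 in stimulated animals, so no fold is given.

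Complement and antigen presentation genes shared this shape. Of 17 complement genes, 13 were higher in both stimulated animals and 0 were lower, with medians of 0.57 and 1.61 in stimulated animals 1 and 2. C1qa, a chain of the initiating complex, measured 108 and 63.4 FPKM in control animals and 137 and 233 in stimulated animals, and C3 measured 17.8 and 7.30 against 18.3 and 99.4. Of 15 MHC and antigen presentation genes, 11 were higher in both and 0 were lower, with medians of 0.45 and 2.12. Cd74, the invariant chain of MHC class II, measured 13.4 and 7.09 against 17.5 and 118 FPKM. In stimulated animal 1, C3 and Cd74 thus lay near the higher control value. Genes of the RT1 family are close copies of each other, so their separate levels are uncertain.

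Genes of lymphocytes and blood leukocytes were low in 3 of the 4 libraries. Of 9 lymphocyte genes above the filter, 6 were higher in both stimulated animals, and of 10 genes of blood monocytes and granulocytes 3 were, with 0 lower in either list. The data listed 17 and 12 genes of these lists before the filter. Because 1 library sufficed to pass it, members may have entered through stimulated animal 2, where both lists summed highest in region 1. Cd8b, a chain of the cytotoxic T cell co-receptor, measured 0.297 and 0.378 FPKM in control animals and 1.51 and 2.43 in stimulated animals. Its partner Cd8a measured 1.01 and 1.44 against 2.82 and 14.9 FPKM. Igkc, the constant region of immunoglobulin kappa, measured 0.232 and 0.138 against 1.96 and 285 FPKM, with stimulated animal 2 far above the other 3. S100a9, an abundant neutrophil protein, overlapped at 1.13 and 0.1 against 0.813 and 77.4 FPKM. Immunoglobulin genes have many close copies, so reads may be split among them.

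Interferon-induced genes had members on both sides of the controls. Of 19, 2 were higher in both stimulated animals and 5 were lower, beside 21.2% and 19.5% of all genes, with a median log2 fold change of 0.11 and medians of -0.26 in stimulated animal 1 and 0.32 in stimulated animal 2. Mx2 and Mx1, antiviral GTPases with similar sequences, measured 18.2 and 15.1 against 10.3 and 10.3 FPKM, and 4.88 and 6.02 against 3.34 and 2.86 FPKM. Rsad2, the antiviral protein viperin, measured 2.06 and 2.41 against 1.60 and 1.19 FPKM. The 2 higher members were Irf1, a transcription factor, at 3.32 and 2.81 against 3.72 and 8.01 FPKM, and Gbp2, a guanylate-binding protein, at 4.15 and 3.17 against 4.48 and 8.91. Ifitm1, described above, was not on this list. The log2 fold change was -0.69 (SE 0.14) for Mx2 and -0.81 (SE 0.19) for Mx1, with a limma adjusted p of 0.71 for each.

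Matrix and dividing-cell genes were mainly those of stimulated animal 2. Of 19 collagen and scar genes, 8 were higher in both stimulated animals and 0 were lower, with medians of 0.09 in stimulated animal 1 and 1.83 in stimulated animal 2. Lum, which encodes the collagen-binding protein lumican, measured 3.59 and 2.48 FPKM in control animals and 5.81 and 11.5 in stimulated animals. Postn, which encodes periostin, overlapped at 2.32 and 2.00 against 1.58 and 33.4 FPKM. Of 18 proliferation genes, 11 were higher in both and 0 were lower, with medians of 0.30 and 1.71. Aurkb, a mitotic kinase, measured 0.535 and 0.433 against 1.14 and 1.36 FPKM. Of 20 matrix metalloproteinases and inhibitors, 6 were higher in both and 2 were lower, and of 16 chondroitin sulfate proteoglycan genes, 5 were higher and 3 lower, beside 21.2% and 19.5% of all genes. The proteoglycan genes had a median log2 fold change of 0.02 that was -0.04 with quantile normalization.

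Neuronal genes lay below the control animals. Of 20 synapse and vesicle genes, 15 were lower in both stimulated animals and 0 were higher, beside 19.5% and 21.2% of all genes, with a median log2 fold change of -0.39 and medians of -0.15 and -0.63 in stimulated animals 1 and 2. In stimulated animal 1 alone, 15 of the 20 were below both controls, beside 24% of all genes, and in stimulated animal 2 alone all 20 were, beside 56.1%. Syn1, the vesicle protein synapsin I, measured 68.5 and 60.1 FPKM in control animals and 48.9 and 36.4 in stimulated animals (log2 fold change -0.60, SE 0.19, limma adjusted p = 0.71). Shank1, a scaffold of the postsynaptic density, measured 27.6 and 24.3 against 18.7 and 15.3 FPKM. Grin2b, a subunit of the NMDA receptor, measured 39.9 in each control animal against 32.6 and 22.9 FPKM. These differences were each under 2-fold, and stimulated animal 2 was below stimulated animal 1 for all 20 genes.

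Potassium channel genes gave the same picture. Of 21, 14 were lower in both stimulated animals and 0 were higher, with a median log2 fold change of -0.44. Kcnc1, a channel of fast-spiking neurons, measured 14.4 and 11.02 FPKM in control animals and 9.91 and 6.87 in stimulated animals. Kcnd3, which carries the transient A-type current, measured 6.401 and 6.71 against 5.39 and 3.56 FPKM. Of 14 genes of neurofilaments and the axonal cytoskeleton, 7 were lower in both and 0 were higher, with a median of -0.24.

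Markers of neuron types did not all lie on 1 side. Of 16 genes of cortical glutamatergic neurons, 8 were lower in both stimulated animals and 1 was higher, beside 19.5% and 21.2% of all genes, with a median log2 fold change of -0.30. Slc17a7 measured 317 and 329 FPKM in control animals and 255 and 225 in stimulated animals. Cux2, a transcription factor of the upper cortical layers, measured 9.82 and 8.08 against 6.47 and 4.78 FPKM, and Tbr1, a factor of deep-layer neurons, 18.7 and 17.8 against 14.5 and 10.7. Of 12 genes of GABAergic interneurons, 3 were lower in both and 1 was higher. With quantile normalization 6 were lower, beside 4725 of all 15210 genes. Gad1, which makes GABA, overlapped at 43.3 and 37.3 against 39.4 and 27.7. Of the 15 striatal markers 0 were lower in both and 2 were higher. The share of cortical gray matter in the blocks and its part in the lower synapse and channel values was not tested.

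**Figure D3:**
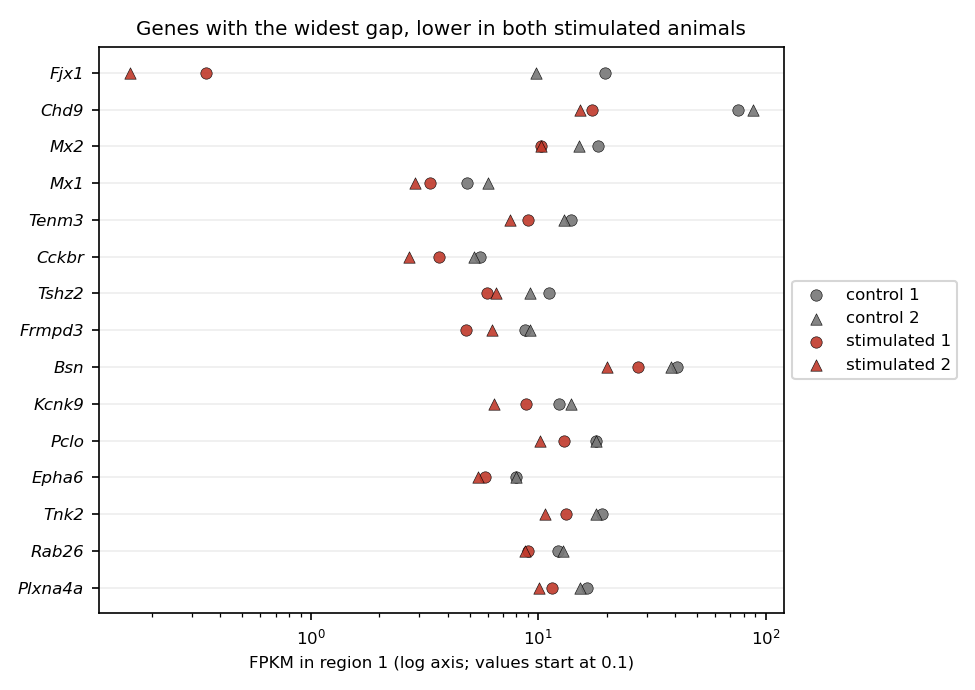
FPKM in region 1, on a log axis, of the 15 abundant genes with the widest gap between groups that were lower in both stimulated animals; gray marks are control and red marks stimulated animals, circles are animal 1 and triangles animal 2. Fjx1 and Chd9 are more than 2-fold apart, at 0.160 to 0.347 against 9.78 to 19.7 and 15.3 to 17.2 against 75.9 to 87.7 FPKM, and the other 13 genes are less than 2-fold apart.

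Of the 20 genes at least 2-fold lower in both stimulated animals (0.131% of all genes), 9 were long non-coding RNAs and only 3 had a mean of at least 5 FPKM in control animals. The abundant genes with the widest gaps after Fjx1 and Chd9 were Mx2 and Mx1, given above, and the other 11 of the 15 had gaps of 0.42 to 0.52 log2 units. Bsn and Pclo, which encode the large scaffolds bassoon and piccolo of the presynaptic active zone, measured 40.9 and 38.4 against 27.5 and 20.1 FPKM, and 18.0 and 17.9 against 13.03 and 10.2. Kcnk9, a leak potassium channel, measured 12.4 and 13.9 against 8.87 and 6.35 FPKM. Cckbr, the brain receptor for cholecystokinin, measured 5.55 and 5.22 against 3.67 and 2.69. Tenm3, a teneurin adhesion protein, measured 13.9 and 12.9 against 9.04 and 7.47 FPKM. Among the others were Plxna4a, a semaphorin co-receptor, and Epha6, an ephrin receptor, with log2 fold changes of -0.56 (SE 0.12) and -0.50 (SE 0.12).

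Fjx1 (ENSRNOG00000005347), which encodes a secreted kinase of the four-jointed family, had the widest gap of the abundant genes. It measured 19.7 and 9.78 FPKM in control animals and 0.347 and 0.160 in stimulated animals. The mean log2 difference was -5.88 (SE 0.57, adjusted p = 0.71 by limma). The same order of the groups was found in the other regions. In regions 2 to 5 the control animals had 5.58 to 16.4 FPKM and the stimulated animals 0.1 to 0.206, and control animal 1 was above control animal 2 in each region. The effect in region 1 minus that in region 2 was 0.01 on the log2 scale (SE 0.45). In 1 model of all 20 libraries the limma adjusted p of Fjx1 was 0.000246, but that model has no term for the animal. Stimulation and the individual animal cannot be told apart.

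Chd9 (ENSRNOG00000049302), a chromatin remodeling helicase, measured 75.9 and 87.7 FPKM in control animals and 17.2 and 15.3 in stimulated animals. The mean log2 difference was -2.33 (SE 0.13, adjusted p = 0.71 by limma). Unlike Fjx1, its level varied from region to region within an animal. In region 2 the values were 112 and 80.6 FPKM in control animals and 107 and 124 in stimulated animals. In region 3 they were 104 and 152 against 14.3 and 15.1 FPKM, and in region 4 they overlapped, at 33.5 and 122 against 231 and 62.3. In region 5 they were 125 and 153 against 57.1 and 14.8 FPKM, without overlap. The stimulated libraries of regions 1 and 3 thus lay between 14.3 and 17.2 FPKM, while those of region 2 overlapped with the controls. The difference of its effect between regions 1 and 2 was -2.61 (SE 0.29, limma adjusted p = 0.88).

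**Figure D4:**
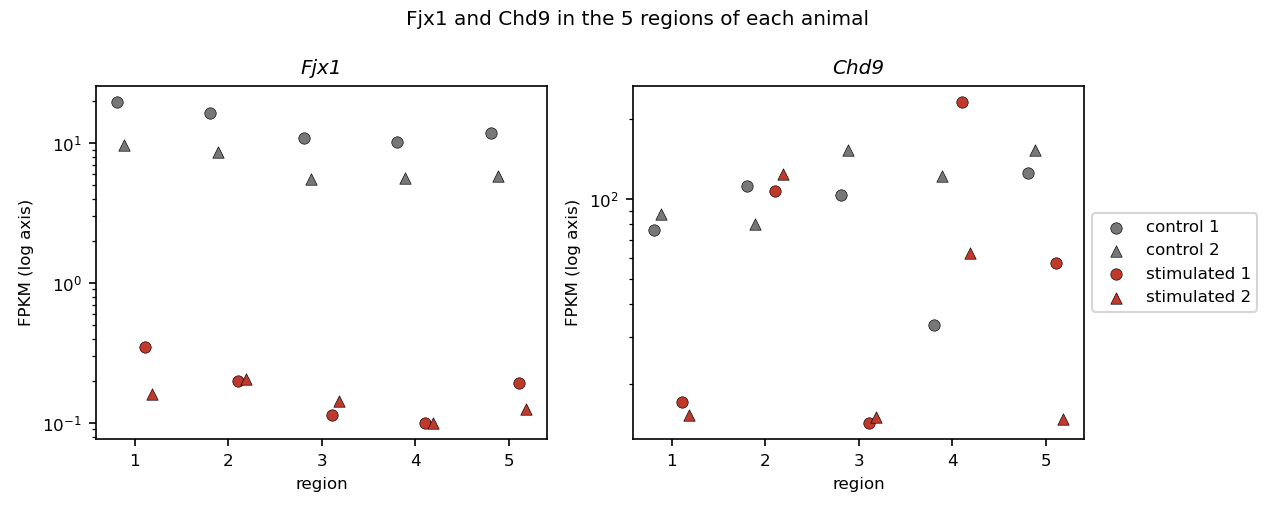
FPKM of Fjx1 (left) and Chd9 (right), on a log axis, in the 5 regions of each animal; gray marks are control and red marks stimulated animals, circles are animal 1 and triangles animal 2. Fjx1 is at 5.58 FPKM or more in every control library and at 0.347 or less in every stimulated library, while Chd9 in stimulated animals ranges from 14.3 to 231 FPKM.

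Myelin genes differed between the stimulated animals rather than between the groups. Of 17, 1 was higher in both stimulated animals and 0 were lower, with medians of 0.53 in stimulated animal 1 and -0.20 in stimulated animal 2. Mbp measured 847 and 891 FPKM in control animals and 1484 and 697 in stimulated animals. Its mean log2 difference was 0.23 (SE 0.49), and it was -0.24 with quantile normalization. Of 14 genes of oligodendrocyte progenitors, 7 were higher in both and 1 was lower, with a median of 0.21. The progenitor medians were 0.30 in stimulated animal 1 and -0.02 in stimulated animal 2. The striatal marker Ppp1r1b, a phosphatase inhibitor of medium spiny neurons, measured 24.4 and 22.3 against 64.5 and 12.3 FPKM. Adora2a, the adenosine receptor of the same neurons, was 1 of 2 striatal genes higher in both, at 1.01 and 0.729 against 6.94 and 2.45 FPKM.

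Lists of vessel cells, other support cells and housekeeping genes were also counted. Of 16 endothelial genes, 1 was higher in both stimulated animals and 2 were lower, with a median of -0.01 that was 0.01 on the log2(FPKM + 1) scale and with upper-quartile scaling. The endothelial medians were -0.11 in stimulated animal 1 and 0.40 in stimulated animal 2. Of 11 pericyte and smooth muscle genes, 2 were higher and 1 lower, and of 16 genes of meninges and fibroblasts, 5 were higher and 3 lower, with medians of 0.19 and 0.41. The pericyte and smooth muscle medians were -0.22 in stimulated animal 1 and 0.55 in stimulated animal 2. Of 11 Schwann cell genes, 4 were higher and 0 lower, and of 8 genes of ependyma and choroid plexus, 2 were higher and 0 lower, with medians of 0.39 and 0.32. Of 11 heat shock chaperones, 7 were higher in both and 0 were lower, with a median of 0.22, and Hspb1 among them measured 22.5 and 12.7 against 34.9 and 144 FPKM. Of 19 respiratory chain subunits, 1 was higher in both and 0 were lower, with a median of -0.11 (0.06 in stimulated animal 1 and -0.30 in stimulated animal 2). With quantile normalization 2 of them were higher and 8 lower, beside 2842 and 4725 of all 15210 genes. With upper-quartile scaling 2 were higher and 4 lower, beside 3624 and 3904.

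Region 2, the same white matter of the opposite hemisphere of the same animals, shows the values away from the electrodes. In region 2, 0 genes (0%) had a limma adjusted p under 0.05 for stimulation and 215 (1.41%) an unadjusted p under 0.05. A total of 3071 genes (20.2%) were higher in both stimulated animals and 1030 (6.77%) were lower. Of the 22 phagocyte genes, 7 were higher in both stimulated animals in region 2, as were 7 of the 20 lysosomal genes and 5 of the 20 reactive astrocyte genes. Of the 20 synapse genes, 0 were lower.

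The 2 stimulated animals again differed in region 2. For the phagocyte list the median was 0.00 in stimulated animal 1 and 1.75 in stimulated animal 2, and for the reactive astrocyte list -0.04 and 2.82. For the lysosomal list it was 0.08 and 1.02. Stimulated animal 2 was therefore above the control animals in both hemispheres, while stimulated animal 1 was above them under the electrodes, at 0.68, 0.48 and 0.52 for these lists. Gpnmb in region 2 measured 3.63 and 3.71 FPKM in control animals and 3.15 and 22.5 in stimulated animals, and Gfap measured 91.4 and 70.1 against 70.6 and 678. Igkc reached 1106 FPKM in region 2 of stimulated animal 2, above its value under the electrodes. For complement genes the region 2 medians were 0.06 in stimulated animal 1 and 3.54 in stimulated animal 2, and for MHC genes 0.19 and 2.88. The median log2 fold change was larger in region 2 than in region 1 for both lists, at 1.90 against 1.11 and 1.55 against 1.29. Higher values of these lists were thus not particular to the tissue under the electrodes.

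**Figure D5:**
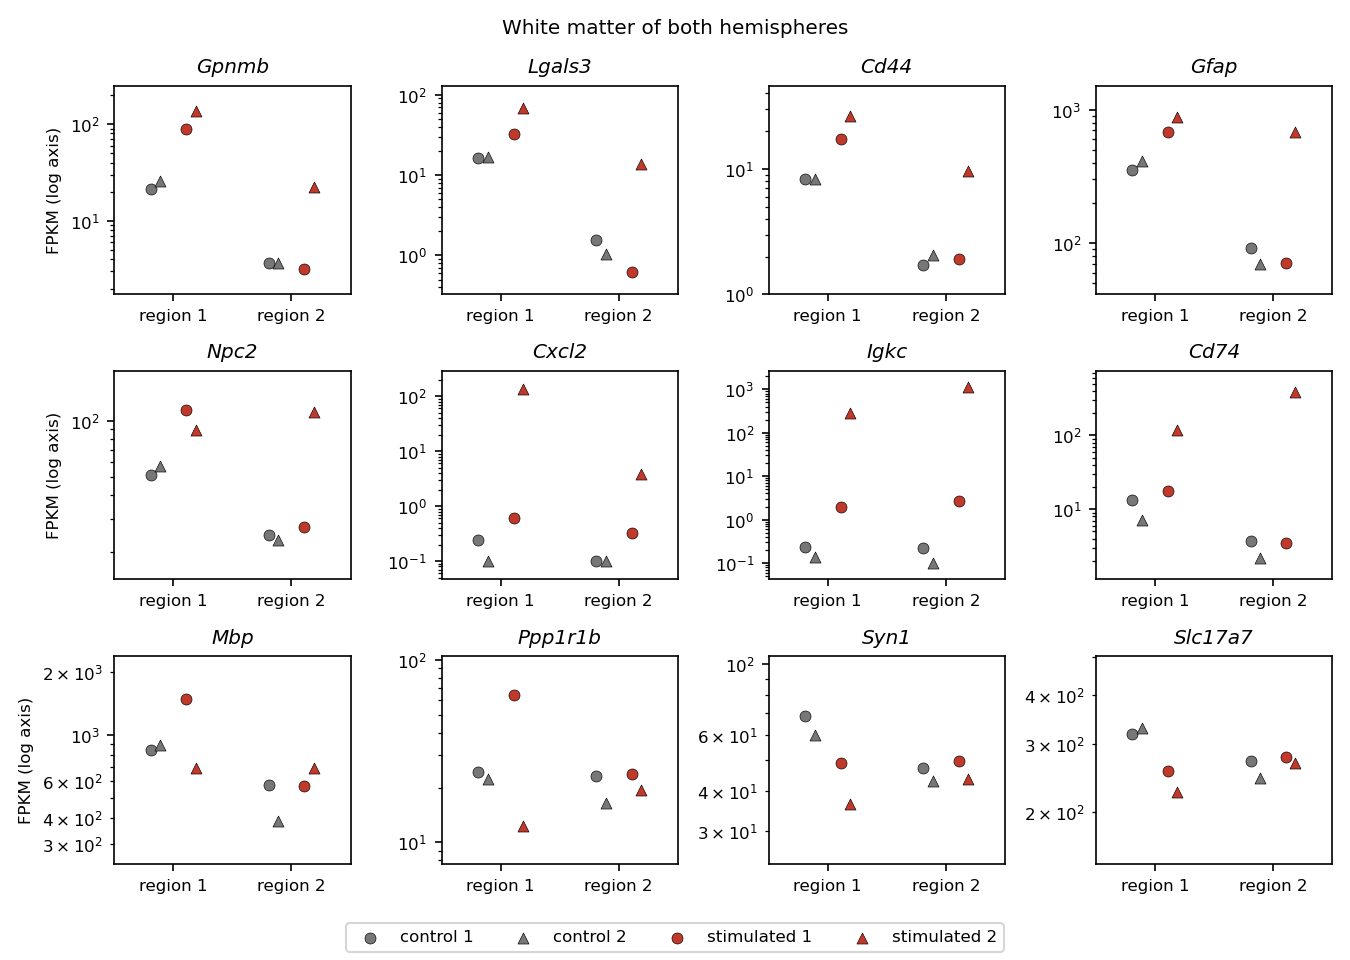
FPKM of 12 genes, each on its own log axis, in region 1 under the electrodes and region 2 of the other hemisphere; gray marks are control and red marks stimulated animals, circles are animal 1 and triangles animal 2. Gpnmb is higher in both stimulated animals in region 1 (88.3 and 137 against 21.2 and 26.0 FPKM) but in region 2 only stimulated animal 2 is above the controls, at 22.5 FPKM.

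The difference itself was tested with limma on the log2 value of region 1 minus that of region 2 within each animal. Of all genes, 0 (0%) had an adjusted p under 0.05 and 575 (3.78%) an unadjusted p under 0.05. The effect of stimulation in region 1 minus that in region 2 was 1.03 (SE 0.77) for Gpnmb, 0.30 (SE 1.20) for Lgals3, 0.18 (SE 0.61) for Cd44 and -0.43 (SE 1.03) for Gfap, so no difference between hemispheres was shown for these genes. Neuronal genes named above had smaller errors, with -0.65 (SE 0.14) for Syn1, -0.68 (SE 0.12) for Bsn and -0.51 (SE 0.22) for Slc17a7, each with a limma adjusted p of 0.88. Bsn was named for its wide gap in region 1, which favors such a difference. Over whole lists the median difference was -0.36 for synapse genes and -0.31 for cortical glutamatergic neurons. It was 0.28 for the phagocyte list, -0.06 for the lysosomal list and -0.01 for reactive astrocytes. Beside Chd9, the genes with the smallest p were Mmp8, Ucma, Gdf15 and LOC680254, each with a limma adjusted p of 0.88.

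Of these, Mmp8, a collagenase of neutrophils, was listed at 0.1 FPKM in both control animals and at 1.01 and 1.37 in stimulated animals in region 1, and at 0.1 to 0.117 in region 2. Gdf15, a stress-induced cytokine, measured 0.133 and 0.105 FPKM in control animals and 0.597 and 2.03 in stimulated animals in region 1, and 0.1 to 0.184 in region 2. Ucma measured 2.09 and 2.30 against 0.680 and 0.421 FPKM in region 1, and 0.978 and 0.846 against 1.15 and 0.769 in region 2. LOC680254 was listed at 0.1 FPKM in all region 1 libraries, and in region 2 the control animals were at 0.1 and the stimulated animals at 0.329 and 0.356, so its difference comes from region 2. Apart from Chd9, each of these genes stayed under 3 FPKM in both regions, and how many reads lie behind such values is unknown.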

How the data were processed

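RNA-seq was performed on region 1 of 2 stimulated and 2 control rats. Total RNA was depleted of ribosomal RNA, and libraries were sequenced together as paired reads. The authors aligned reads to Rnor6 with TopHat2 2.1.0 and estimated FPKM with Cufflinks 2.2.1, after quality checks with FastQC and MultiQC 1.6; the authors deposited FPKM values per gene, with values under 0.1 raised to 0.1. Because the deposited unit is FPKM, no count test was possible. The annotation version and the strand setting of the counting are not given in the sources used here, so overlapping and antisense genes are uncertain. All columns matched a sample (0 without one), and no comparisons of the authors were in the table.

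Log2 values of genes with at least 1 FPKM in any of the 20 libraries were fitted with limma 3.58.1 (lmFit, eBayes with trend) in R 4.3.3, using the 4 libraries of region 1, or the 4 differences between regions 1 and 2 within animals. P-values are two-sided and were adjusted over all 15210 genes after Benjamini and Hochberg, with a threshold of 0.05. Summaries used Python 3.11.15, numpy 2.4.6, pandas 2.3.3 and matplotlib 3.10.9. A group of genes is higher or lower in both stimulated animals where the values do not overlap, and at least 2-fold apart where the gap is at least 1 log2 unit.

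The comparison, gene lists and named genes were chosen with earlier results of these data known. Named were the 15 genes in each direction with the widest gap among those that averaged 5 FPKM or more in the higher group and no clone or LOC name, list members with the widest gaps or defining roles, the 3 genes that the study names for this region, and the 5 genes with the smallest p for the difference between regions 1 and 2. A symbol listed more than once was represented by its entry of highest mean. The 38 lists hold 630 genes, of which 559 passed the filter; some members are not reported here.

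Replicate numbers name different animals in the 2 groups. Deviations of same-numbered libraries from their group means correlated at -0.213 over genes, so the numbers were not used as pairs. In a test on simulated data for 15210 genes with 200 changed by a log2 fold change of 2, the comparison in region 1 called 190 genes and recovered 181 (90.5%), and the difference between regions recovered 127 (63.5%). The simulated noise was independent and normal, with the spread that limma fitted for each gene used in every library. No simulated animal stood apart as stimulated animal 2 did, so these recovered shares do not carry over to the measured libraries. In the measured comparison in region 1, Gpnmb at 2.23 (SE 0.27) and Chd9 at -2.33 (SE 0.13) did not pass the threshold. Precision rests on 2 animals a group. Alternatives were another log2 offset, quantile and upper-quartile normalization, other filters, eBayes without a trend, 1 model of all libraries, the replicate number as a block, and leaving out each animal.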

Additional observations from a re-analysis of the deposited data

How the results depend on the processing

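The count of 0 genes past the threshold in region 1 became 6 without a filter on low values, all at 0.240 FPKM or less in region 1, and 1 (Fjx1) in 1 model of all 20 libraries. It stayed at 0 with the replicate block, where 539 genes had an unadjusted p under 0.05, and with a crossed replicate block chosen after seeing the data (1115 unadjusted). Leaving out each animal gave 0 to 228. The 228 came without stimulated animal 1, and in 161 of them both control libraries were at 0.1 FPKM. Without stimulated animal 2 there were 15, all with both controls at 0.1 FPKM, and 8 genes passed in both cases (Capsl, Ccr2, Igh-1a, LOC100910237, Mmp8, Mt1, RT1-M2 and Tbx4). The lone stimulated animal is then assumed to vary like the controls.

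With an animal left out, genes whose remaining stimulated values all lay above the remaining control values numbered 3794 to 7512. Such counts, and those of genes lower or at least 2-fold apart, can then only stay equal or rise, because fewer libraries are compared. Genes lower numbered 4725 with quantile normalization and 3647 to 8535 with an animal left out. The 66 genes at least 2-fold higher became 9 on the log2(FPKM + 1) scale, 43 with quantile normalization, 107 without a filter, 35 where genes averaged 1 FPKM or more in region 1, and 128 to 1130 with an animal left out. The 20 genes at least 2-fold lower became 2, 32, 47, 6 and 41 to 187 in the same order. The highest counts came without stimulated animal 1, at 1130 and 187. The difference between regions 1 and 2 gave 2 genes without a filter, 1 (Chd9) with the mean filter, and 0 to 133 with an animal left out, the 133 without stimulated animal 1. Apart from this effect of leaving out an animal on those counts and from the filters' own construction, the cause was not tested.

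Of 1111 recomputed log2 fold changes of 101 genes, 12 reversed and 17 passed the threshold. P2ry12 was 0.024 with quantile normalization and 0.018 with upper-quartile scaling, Bdnf -0.077 and Mbp -0.24 with quantile normalization. With an animal left out, P2ry12 ran from -0.19 to 0.17, Egr1 from -0.033 to 0.47, Bdnf from -0.032 to 0.13, Postn from -0.44 to 3.96, Mbp from -0.32 to 0.77 and Ppp1r1b from -0.92 to 1.47.

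Of 266 recomputed list medians, 15 reversed and 16 moved. Chondroitin sulfate proteoglycans were at -0.040 with quantile normalization, and endothelium at 0.0097 on the log2(FPKM + 1) scale and 0.015 with upper-quartile scaling. With an animal left out, medians ran from -0.26 to 0.32 for interferon-induced genes, -0.21 to 0.076 for proteoglycans, -0.20 to 0.53 for myelin, -0.021 to 0.30 for progenitors, -0.48 to 0.26 for resting astrocytes, -0.23 to 1.47 for striatal markers, -0.11 to 0.40 for endothelium, -0.22 to 0.55 for pericytes, -0.030 to 0.82 for meninges and -0.30 to 0.064 for the respiratory chain. Depth limits low genes to an unknown degree, since FPKM holds no read numbers.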
